A study of Anolis carolinensis with 142 samples.

Results

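Dorsal skin of male and female green anoles (*Anolis carolinensis*, small diurnal lizards) was compared in the libraries titled Midnight or ALAN (artificial light at night), 15 of the 142 RNA sequencing libraries of the study. They came from 7 males (4 Midnight, 3 ALAN) and 8 females (4 of each treatment). All 24 animals of the study were wild-caught adults taken in the breeding season and labelled WT, and each gave several tissues. Midnight animals were killed at night in the dark under a red torch, and ALAN animals, those given artificial light, in the same hours with the same torch. The third treatment, Midday, was left out of the comparison because 6 of its 8 dorsal libraries belonged to another class of counts. In that class even numbers made up under 50% of the counts between 1 and 20, whereas all 15 libraries compared and all 8 Midnight libraries of ventral skin were above that mark. The labels name no batch that differs between these libraries, and sex had been assigned from hemipenes and dewlap size.

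Reptile skin is a cornified epidermis over a dermis with pigment cells, and it is shed and renewed in cycles. Green anoles have male heterogamety (XY), and the microchromosome called linkage group b is known as their X. Testes transcribe many genes during sperm formation that most other tissues hardly use, so testes-enriched genes form a recognisable group when tissues of the same animals are compared.

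The deposited table gives Ensembl gene IDs without names, and 0 of its 26479 IDs matched the gene table used for names. Genes are therefore described by place, exon number and the tissue in which they were most abundant, and no gene list that needs names was counted. Coordinates are those of the deposited table. Exon numbers are the exon entries it lists for a gene, which may repeat an exon over transcripts. Total counts ran from 20342197 to 22851139 in males and from 22008554 to 25777798 in females. As a check of the tissue label, 247 genes enriched in ventral skin over all non-skin tissues took 10.1% to 24.0% of the counts in the 15 dorsal libraries, against 0.0923% to 0.120% in 16 brain libraries. Pairs of libraries of the same group differed far beyond counting noise, so no library was counted as a repeat. Nothing says that an animal was sampled more than once for dorsal skin, and p-values measure the spread between these animals.

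Males and females differed at 169 of 17478 tested genes (0.967%), by edgeR's quasi-likelihood test with treatment as a covariate and a Benjamini-Hochberg adjusted p under 0.05. Of these, 146 were higher in males (0.835% of the genes tested) and 23 were higher in females (0.132%). The genes higher in males were mostly low in skin and abundant in testes, and their differences were large. The genes higher in females were mostly well expressed in skin and differed modestly. At an unadjusted p under 0.05 there were 2100 genes (12% of those tested), and DESeq2 called 609 (3.48%), with 414 higher in males (2.37%), 195 higher in females (1.12%) and 164 of the 169 among them. With single libraries left out, edgeR called 111 (without ALAN female 1) to 177.

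**Figure D1:**
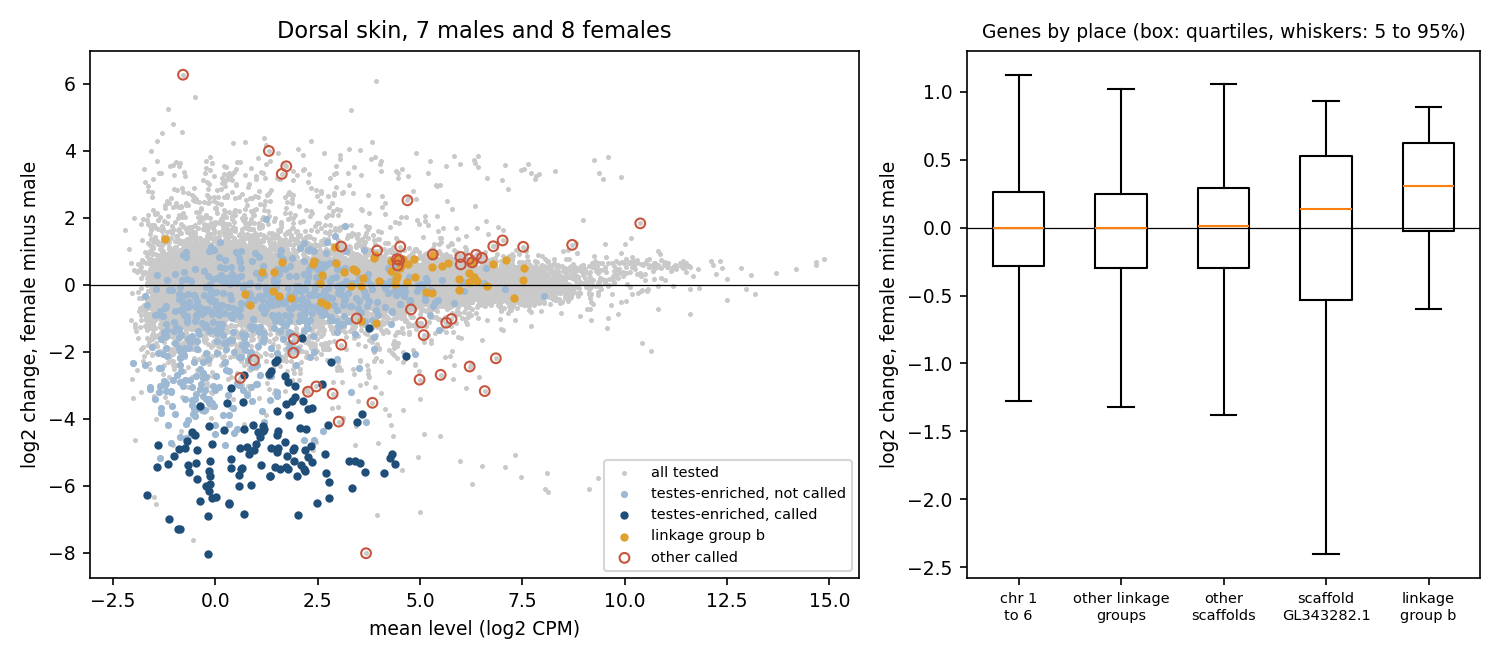
Left, the log2 change (female minus male) of every tested gene in dorsal skin against its mean level in log2 CPM (counts scaled to a common library total), with testes-enriched genes, linkage group b and other called genes marked. Right, the same log2 change by place in the genome (box: quartiles, whiskers: 5 to 95% of genes). Called testes-enriched genes lie between -8.04 and -1.28, and the median of linkage group b is 0.30 where that of all tested genes is 0.01.

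Testes-enriched genes made up most of the male side. This list holds 984 genes whose mean in testes reached 5 CPM and exceeded the mean of every other tissue at least 8-fold, and it was made from the libraries of the same study. It supplied 124 of the 146 genes higher in males (84.9%) and 0 of the 23 higher in females, where it supplied 729 of all 17478 genes tested (4.17%). The share depended on the tool and the libraries, with 224 of the 414 male-high genes of DESeq2 (54.1%) and 265 of 417 (63.5%) when Midday libraries and the counting class were added to the edgeR fit. Over the whole list of 984, tested or not, the male mean in dorsal skin was above the female mean for 860 genes and below it for 123, where 58.1% of all 26479 genes had the higher mean in males. The genes of the list that were called had a median of 685 CPM in testes, against 175 for those tested and not called and 22.6 for those too low to be tested.

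Most of the 124 genes were near 0 in female skin. Their median mean level was 4.71 CPM in males and 0.124 CPM in females, where 6 of them had a mean of at least 1 CPM and the highest stood at 7.84 CPM. Their median log2 change was -5.05 (range -8.04 to -1.28), where the median absolute log2 change of all tested genes was 0.28. Summed over the 8 female libraries, 5 of the 124 had no count and 15 had 1 to 3 counts, so that fitted changes of these genes depend on the fit's prior count. With pooled counts and the genes without a female count set at 3 counts over the group, the median was -5.58. In 104 of the 124 every male library was above every female library, where 148 of all tested genes had no overlap between the sexes (0.847%; 0.812% with males above). The 148 include these 104. The 124 genes were called in the same libraries, which favours such separation. They were also short with few exons: 29.0% had a single exon, against 8.70% of all tested genes. Their median was 3 exons and 1187 bases, against 8 exons and 1784.5 bases. Testes-enriched genes tested and not called were not compared, so this may hold for the list as a whole.

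Among these 124 genes, which were called for being high in the same male libraries, the level in male skin followed that in testes. The mean of the 7 males was a median of 0.709% of the mean in testes, with quartiles of 0.612% and 0.809%. ALAN male 1 carried much of that value: without it the median was 0.338% (quartiles 0.298% and 0.403%), the median level in males 2.64 CPM and the median log2 change -4.41. Omitting any other male gave 0.692% to 0.8005%. Taken singly over these 124 genes, ALAN male 1 stood at 2.62%, ALAN male 4 at 0.768% and the other 5 males at 0.145% to 0.351%. The genes were spread over chromosomes and scaffolds, and 11 runs of 2 or more neighbouring tested genes were called in the same direction, all of them testes-enriched and higher in males. The longest run held 4 genes on chromosome 1 (95603923 to 95637977), with male means of 1.26 to 7.00 CPM and female means of 0.0196 to 0.109 CPM. The cut first set was 3 neighbours, reached otherwise only by 3 genes on chromosome 2 (165106978 to 165108213). How often testes-enriched genes lie side by side among all tested genes was not counted.

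**Figure D2:**
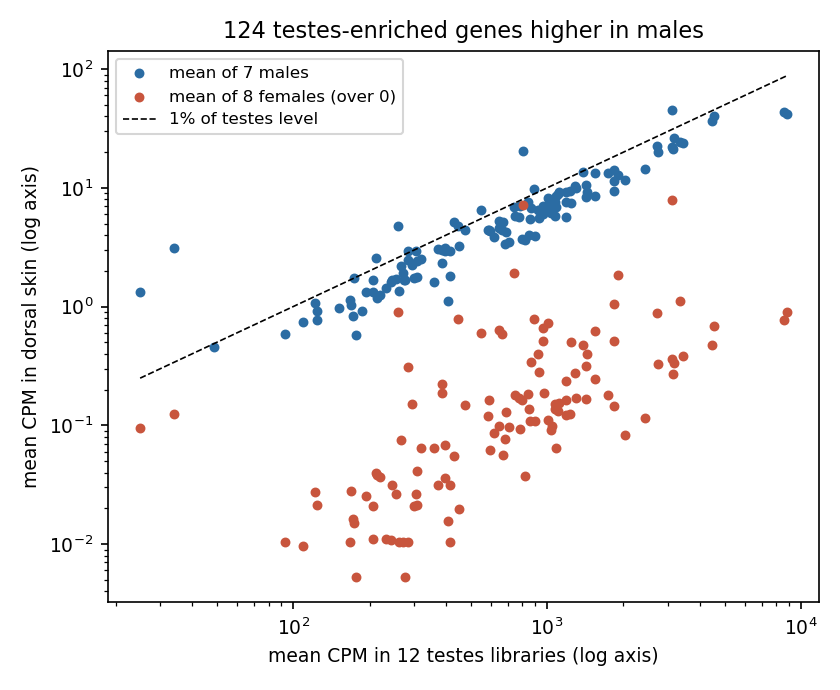
Mean level in dorsal skin of 7 males and of 8 females (CPM, log axis) against the mean level in 12 testes libraries (CPM, log axis) for the 124 testes-enriched genes called higher in males; genes at 0 in every female are drawn for males only. Male points follow a line with a median of 0.709% of the testes level, or 0.338% when ALAN male 1 is left out of the mean.

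The size of this signal differed between males. It was summarised per library as the median level, in percent of the testes level, of the 100 testes-enriched genes most abundant in testes. Midnight males 1 to 4 stood at 0.259%, 0.385%, 0.186% and 0.242%, and ALAN males 1, 2 and 4 at 3.23%, 0.316% and 0.938%. Midnight females stood at 0.0687%, 0.0338%, 0.0350% and 0.0346%, and ALAN females at 0.0360%, 0.0142%, 0.0265% and 0.0720%. All 7 males were thus above all 8 females, and ALAN male 1 was the highest library, in which 118 of the 124 called genes also had their highest value. Testes-enriched genes took 1.18% of the counts in ALAN male 1 (Wilson 95% interval 1.17% to 1.18%, counting error only). Without that library 153 genes were called, 98 of them testes-enriched and higher in males. Without ALAN males 1 and 4, the 2 highest libraries, 38 of 19028 genes were called (0.2%), 18 of them testes-enriched and higher in males, and 27 of the 38 were among the 169.

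The same measure in other skin libraries did not always separate the sexes. In ventral skin at Midnight, from the same 8 animals, males stood at 0.509%, 0.221%, 0.0957% and 0.119% and females at 0.0219% to 0.0311%, with no overlap. In dorsal skin at Midday, from other animals, males stood at 0.258%, 0.310%, 0.132% and 5.14% and females at 0.0308%, 0.0651%, 0.198% and 0.0891%, so that 1 female exceeded 1 male. In ventral skin under ALAN the males were at 0.0160%, 0.0335%, 0.0542% and 0.191% and the females at 0.152%, 0.0498%, 0.150% and 0.227%, and in ventral skin at Midday the females were at 0.0426%, 0.933% and 0.389% and the males at 0.404%, 0.234%, 0.184% and 0.427%, with overlap. In those last 2 groups males were not higher, and in the ALAN group all 4 females and male 4 were of the other counting class while males 1 to 3 were not. The part of RNA carried over from testes in this result was not tested. In bulk tissue, fewer cells of a type and less RNA per cell cannot be told apart.

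**Figure D3:**
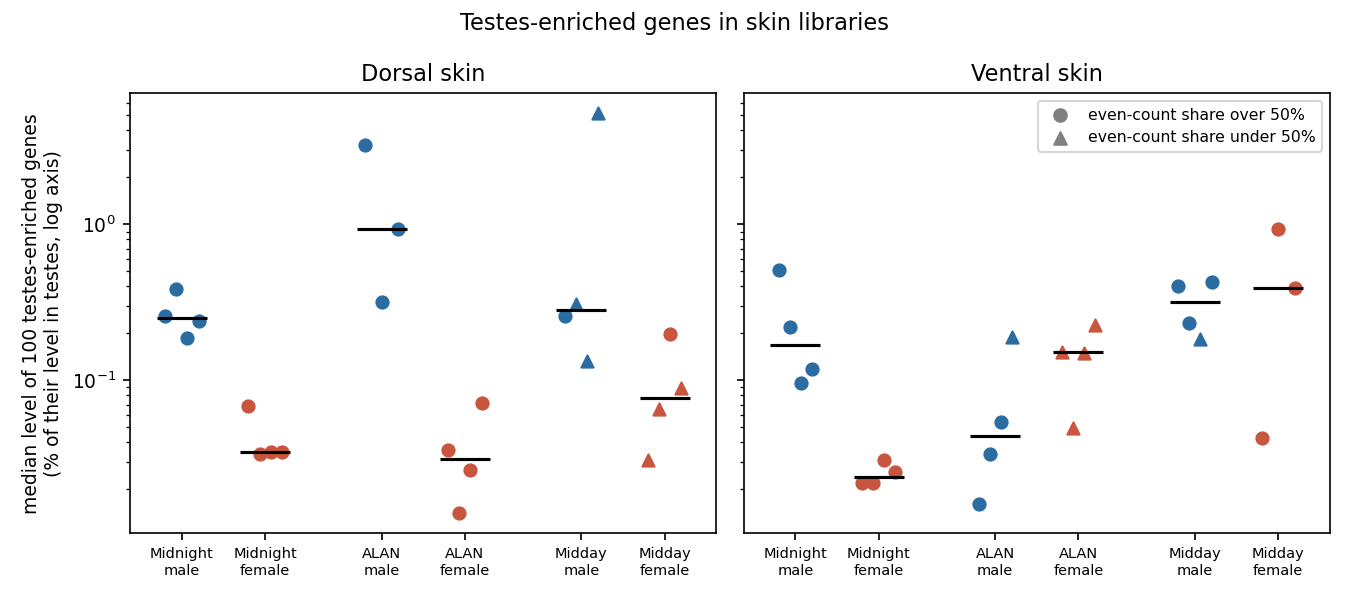
Median level of 100 testes-enriched genes in each library of dorsal skin (left) and ventral skin (right), in percent of their level in testes (log axis), by treatment and sex; bars are group medians and triangles mark libraries with under 50% even counts. The 7 dorsal males of Midnight and ALAN lie between 0.186% and 3.23%, above the 8 females, whereas the sexes overlap in ventral skin under ALAN and at Midday.

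The number of calls depended on this list. With the 984 testes-enriched genes taken out of the table, edgeR called 0 of 16749 genes (0%), although 1779 had an unadjusted p below 0.05, and the lowest adjusted p was 0.0518. Benjamini-Hochberg thresholds depend on the other genes tested, and the 45 calls outside the list in the whole table had adjusted p-values from 0.00573 upward.

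ENSACAG00000038058, the gene of smallest p on the male side, has 2 exons on scaffold GL343349.1 (1089412 to 1089955, plus strand) and stood at 1082 CPM in testes. Its 7 male values in dorsal skin ran from 1.09 CPM through a median of 2.88 to 37.4, and the 8 female values from 0 through 0.0210 to 0.221. ALAN male 1 was the highest, the sexes did not overlap, and the male libraries held 1295 counts against 12 in females. The mean was 8.47 ± 13.2 CPM in males (SD, n = 7) and 0.0638 ± 0.0853 in females (SD, n = 8), a log2 change of -6.87 ± 0.72 (SE, edgeR adjusted p = 0.0011). A library without a read allows a level of up to 0.116 to 0.147 CPM (3 counts of its total). In brain, where it was also higher in males, its log2 change was -4.43 (edgeR adjusted p = 1.85e-04). Ventral skin was mixed. At Midnight the median was 1.24 CPM in males and 0.0393 in females. The female median was the higher at Midday (5.48 CPM against 2.31 in males) and under ALAN (1.76 CPM against 0 in males).

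ENSACAG00000029618, the gene of largest change on the male side by the rule used, has 6 exons on scaffold GL343656.1 (192810 to 203679, plus strand). It stood at 100.0 CPM in testes, its highest tissue, but is not in the testes-enriched list. Midnight male 4 was at 183 CPM in dorsal skin, where the other 6 males ran from 0.175 to 4.07 and the 8 females from 0 to 0.174. Every male was above every female, although Midnight male 3 (0.175 CPM) and Midnight female 4 (0.174 CPM) were nearly equal. The fitted log2 change was -8.02 ± 1.71 (SE, edgeR adjusted p = 0.0358), and without Midnight male 4 it was -3.84 (edgeR adjusted p = 0.0519). It missed the threshold in 10 of 15 omissions of a single library, with edgeR adjusted p from 0.0193 to 0.103. High values recurred in single males of both kinds of skin. In ventral skin it was at 261 CPM in Midnight male 4 and at most 0.827 in the other Midnight males. At Midday it was at 163 CPM in dorsal and 189 CPM in ventral skin of male 2, where no other Midday skin library exceeded 5.53. In brain, eye, liver and ovary its highest value was 1.35 CPM. The 12 testes libraries ran from 86.5 to 113 CPM, below the high values of those single males.

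The other 22 genes higher in males, ENSACAG00000029618 among them, were outside the testes-enriched list. Of them, 8 were most abundant in skin, 8 in testes, 3 in liver, 2 in eye and 1 in ovary, and their median log2 change was -2.35. Their summed level ran from 406 through a median of 787 to 2367 CPM in males and from 125 through 213 to 377 CPM in females. ALAN male 2 (2367 CPM) and Midnight male 4 (2000 CPM) were highest, and 13 of the 22 peaked in the first and 5 in the second. Male and female libraries were fully apart for 4 of the 22, where 0.812% of all tested genes had every male above every female. The 22 were called in the same libraries, which favours such separation. The most abundant of them in males with its peak in skin has 27 exons on chromosome 6 (66792162 to 66840134). Its values ran from 20.9 through 68.1 to 508 CPM in males and from 5.35 through 14.9 to 38.4 CPM in females, so that the ranges overlapped, with a log2 change of -3.18 ± 0.69 (SE, edgeR adjusted p = 0.0400). The median number of exon entries was 7.5 in the 22 genes and 8 in all tested genes. Single genes of the 22 had very many: 358 on scaffold GL343545.1, 335 on GL343319.1 and 144 on linkage group h. How many of all tested genes have so many entries was not counted.

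Higher levels in females were smaller and more even. Of the 23 genes, 10 had a log2 change under 1, 8 from 1 to 2 and 5 of 2 or more, with a median of 1.13. With single libraries left out, the count of female-high genes ran from 7 (without ALAN male 4) to 38 (without Midnight male 2 or ALAN female 3). By tissue, 8 were most abundant in ovary, 4 each in eye and skin, 3 each in liver and brain, and 1 in testes. Only 2 of the 23 were in the list of 385 ovary-enriched genes, whose female mean in dorsal skin was the higher for 201 (52.2%) and the male mean for 184 (47.8%), where 32.3% of all 26479 genes had the higher mean in females and 58.1% in males. Of the ovary-enriched genes 323 were tested. DESeq2 called 42 of them higher in females and 4 higher in males, where it called 1.12% and 2.37% of all tested genes. At an unadjusted p under 0.05 by edgeR, 67 were female-high and 10 male-high, where 5.36% and 6.65% of all tested genes were. Their share of counts had a lower median in females (0.225%) than in males (0.278%), with the highest in Midnight female 3 (0.379%). At the same unadjusted level, dorsal skin at Midday gave 8 female-high and 8 male-high of 224 tested (312 and 658 of all 14872 genes). Ventral skin at Midnight gave 44 and 1 of 273 (678 and 795 of all 15567), with a median log2 change of -0.04. The 23 genes had their highest female value in 7 different libraries, with at most 5 in any (ALAN female 1). Male and female libraries were fully apart for 4 of the 23, where 0.0343% of all tested genes had every female above every male. Being called in the same libraries favours such separation here too.

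Linkage group b and the unplaced scaffold GL343282.1 held 7 of the 23, and the other 16 lay on chromosomes 1 to 6 (9 genes) and, singly, on 7 scaffolds. Linkage group b supplied 3 female-high genes among its 61 tested genes, where 0.132% of all tested genes were female-high, and 0 male-high genes. DESeq2 called 9 of its genes higher in females and 0 in males. Its median log2 change was 0.30, with 45 of 61 genes above 0, where all tested genes had a median of 0.01 and 50.5% above 0. At an unadjusted p under 0.05, 17 genes of linkage group b were higher in females (5.36% of all tested genes were) and 2 were higher in males (6.65%). Scaffold GL343282.1 supplied 4 female-high genes and 0 male-high genes among 57 tested, and it was singled out for that count. Its median log2 change was 0.14, with 32 of 57 genes above 0 (56.1%). In ventral skin at Midnight its median was -0.02, against 0.30 for linkage group b. In dorsal skin at Midday the medians were 0.09 and 0.17.

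In brain of the same treatments, 32 of the 61 genes of linkage group b and 17 of 43 on GL343282.1 were higher in females, where 0.669% of all genes tested in brain were. Of the 7 scaffolds with a single female-high gene in dorsal skin, GL343417.1 and GL343423.1 held 13 and 9 female-high genes in brain, and the other 5 held 0. GL343417.1 also held 1 gene higher in males in dorsal skin. Scaffold GL343338.1, with 17 female-high genes in brain, had 0 in dorsal skin among 48 tested and 1 higher in males. Its median log2 change in dorsal skin was 0.31.

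The sexes were fully apart for 1 of the 3 called genes on linkage group b. A gene of 5 exons (2290191 to 2295412) ran from 14.6 through 17.1 to 20.0 CPM in males and from 21.4 through 24.4 to 31.7 CPM in females, with no overlap and a log2 change of 0.77 ± 0.17 (SE, edgeR adjusted p = 0.0427). A gene of 7 exons (1739589 to 1743399) ran from 20.3 through 29.3 to 40.6 CPM in males and from 35.5 through 51.6 to 57.5 CPM in females, with the highest male above the lowest female and a log2 change of 0.90 ± 0.17 (edgeR adjusted p = 0.0167). A gene of 11 exons (2156558 to 2164225) ran from 54.1 through 64.6 to 73.8 CPM in males and from 58.6 through 95.0 to 102 CPM in females, also with overlap and with a log2 change of 0.67 ± 0.12 (edgeR adjusted p = 0.0182). On scaffold GL343282.1 a gene of 5 exons (1469671 to 1472776) ran from 7.77 through 12.0 to 12.9 CPM in males and from 14.0 through 20.4 to 22.1 CPM in females, with no overlap.

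ENSACAG00000015767, the gene of smallest p on the female side, has 10 exons on chromosome 3 (7930245 to 7948055, plus strand) and was most abundant in liver. Its dorsal values ran from 0 through a median of 0.192 to 0.758 CPM in the 7 males and from 1.17 through 3.64 to 10.1 CPM in the 8 females. No male reached the lowest female. The mean was 0.289 ± 0.257 CPM in males (SD, n = 7) and 4.20 ± 3.13 in females (SD, n = 8), a log2 change of 4.00 ± 0.70 (SE, edgeR adjusted p = 0.0128). At Midday the 4 males were at 0.0890, 0.0975, 0 and 0.419 CPM and the 4 females at 17.3, 6.70, 10.5 and 2.92, again without overlap. In ventral skin at Midnight the males were at 0.722, 1.45, 0.459 and 0.0836 CPM and the females at 0.698, 16.8, 8.18 and 9.66, where only female 1 fell within the male range. In brain of the same treatments all 16 libraries lay between 1.51 and 3.65 CPM, with a log2 change of 0.04, and the difference between dorsal skin and brain in the sex effect had an edgeR adjusted p of 0.0140. That test treats the dorsal and brain libraries, which came from the same animals, as independent, and with the title number as a block its edgeR adjusted p was 0.374. In liver the female median was also the higher, at 15.3 against 4.51 CPM at Midday, without overlap. It was 12.6 against 10.4 CPM at Midnight and 33.0 against 9.30 CPM under ALAN, both with overlap. In eye the sexes overlapped in every treatment.

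ENSACAG00000042617, the second gene named on the female side, has 3 exons on scaffold GL343590.1 (234638 to 245704, minus strand) and was among the ventral-skin-enriched genes. Its values ran from 42.5 through 83.5 to 111 CPM in males and from 104 through 174 to 272 CPM in females. Within each treatment the sexes were apart, and ALAN male 2 alone exceeded the lowest female, Midnight female 4. The mean was 80.1 ± 24.7 CPM in males (SD, n = 7) and 173 ± 56.2 in females (SD, n = 8), a log2 change of 1.32 ± 0.29 (SE, edgeR adjusted p = 0.0373). It missed the threshold in 10 of 15 omissions of a single library, with edgeR adjusted p from 0.0267 to 0.0845.

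**Figure D4:**
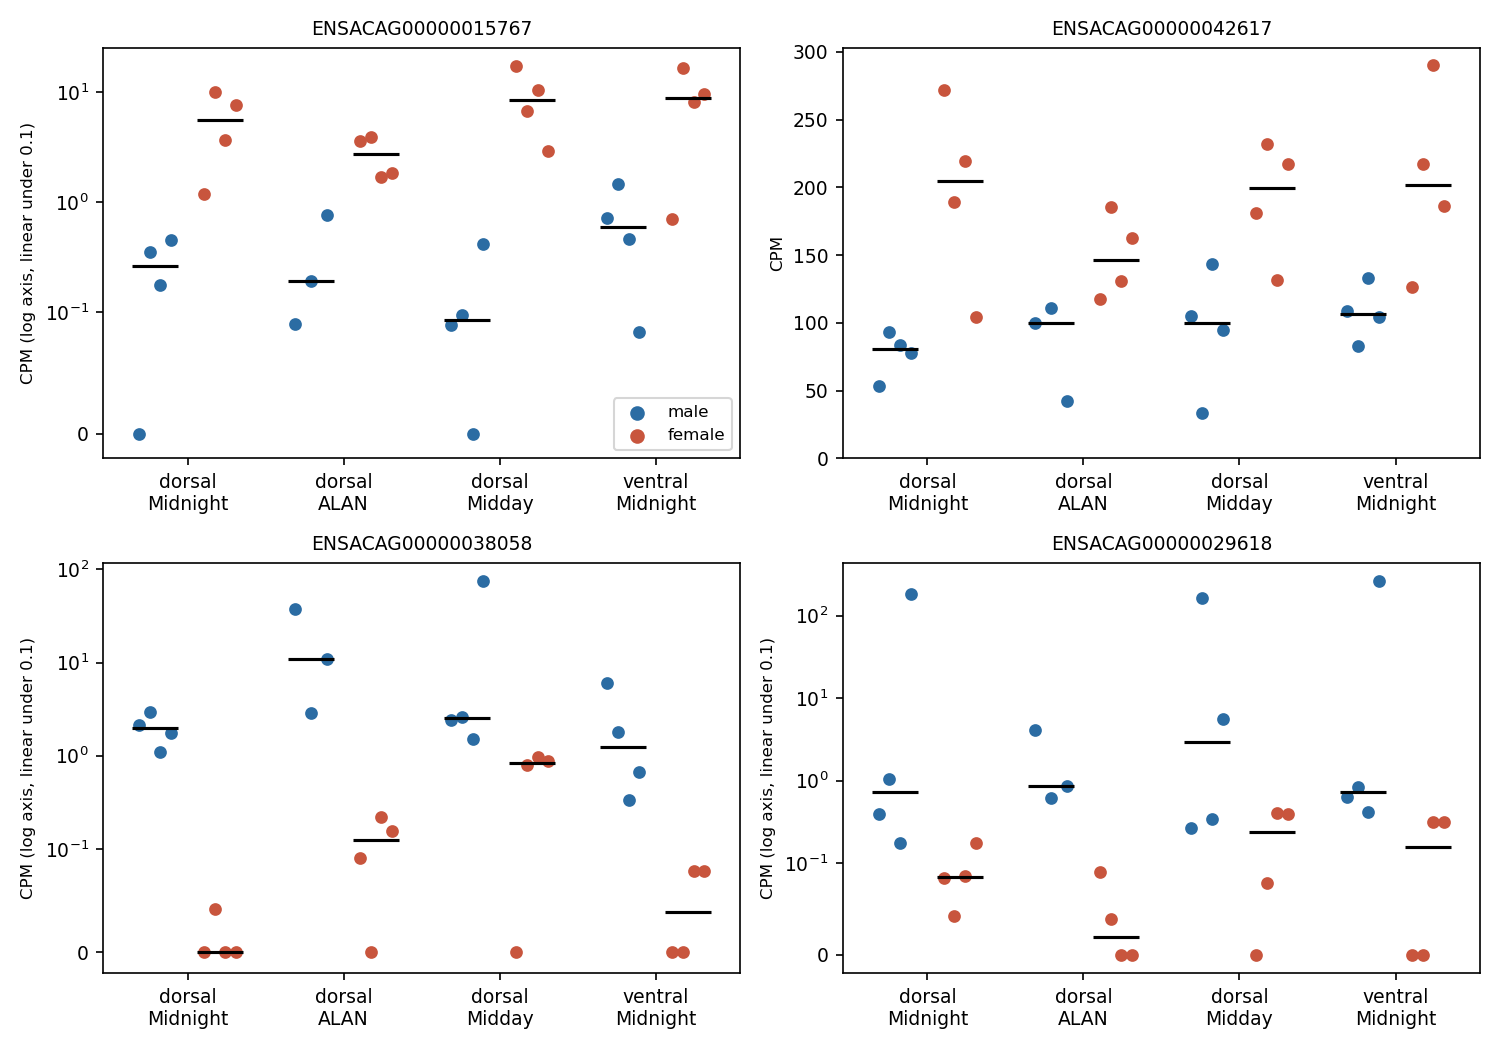
Level of the 4 named genes in each library (CPM; log axis that is linear under 0.1, except a linear axis from 0 for ENSACAG00000042617), by tissue, treatment and sex, with bars at group medians. ENSACAG00000015767 is higher in all dorsal females than in any dorsal male, and ENSACAG00000029618 exceeds 100 CPM only in Midnight male 4 and Midday male 2.

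Sex effects were not called in either treatment alone. Midnight libraries alone gave 0 of 16073 genes (0%), against 1513 before adjustment at the same level of 0.05, and ALAN libraries alone gave 0 of 16050 (0%) and 1764. The test of whether the sex effect differed between treatments called 0 of 17478 genes (0%, edgeR), its lowest adjusted p being 0.462, while 1827 (10.5%) passed 0.05 unadjusted and DESeq2 called 35 (0.2%). Of the 124 testes-enriched genes, 36 had an unadjusted p under 0.05 in that test.

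Ventral skin at Midnight served as the check, with 4 males and 4 females that also supplied the Midnight dorsal libraries. EdgeR called 0 of 15567 genes (0%; lowest adjusted p 0.227). Before adjustment 1473 passed 0.05 (9.46%), and DESeq2 called 261 (1.68%), 60 of them among the 169 and in the same direction. Of the 124 testes-enriched genes 61 were tested there, all 61 with a lower level in females, and 53 had an unadjusted p under 0.05 (5.11% of all genes tested there were that low and higher in males). Their median log2 change was -4.90 in ventral and -4.86 in dorsal skin. Genes near 0 in females pass the count filter through males, which favours this direction among the 61. Counting also those too low to be tested, the male mean was the higher for 124 of 124, where it was the higher for 49.7% of all 26479 genes. The 124 are not separate checks. Over the 100 genes of the measure above, the 4 males stood at 0.0957% to 0.509% and the 4 females at 0.0219% to 0.0311%.

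The other called genes followed to different extents. Of the 23 genes higher in females, 22 were tested in ventral skin, 21 in the same direction and 14 with an unadjusted p under 0.05 (4.36% of all genes tested), with median log2 changes of 1.03 in ventral and 1.08 in dorsal skin. Of the 22 other genes higher in males, 19 of 22 had the same direction and 5 an unadjusted p under 0.05, and the median log2 change was -0.73 against -2.35. Among all genes tested in both, 66.6% had the same direction. A direct test of the sex effect between the 2 kinds of skin called 0 of 16983 genes (0%, edgeR), while 396 passed 0.05 unadjusted (2.33%) and DESeq2 called 2 (0.0118%). Of the 150 called genes in that test, 17 had an unadjusted p under 0.05. The test treats dorsal and ventral libraries, which came from the same animals, as independent. Its 0 calls therefore do not show that the sex effect is the same in both skins.

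Dorsal skin at Midday gave the same contrast in other animals, with totals down to 10257388 and both counting classes. EdgeR called 0 of 14872 genes (0%), DESeq2 called 78 (0.524%), and 970 passed 0.05 unadjusted (6.52%). The direction was that of Midnight and ALAN for all 74 testes-enriched genes tested. It was the same for 19 of 19 other male-high genes and 21 of 21 female-high genes, where 60.8% of all genes had the same direction. Genes near 0 in females pass the count filter through males, which favours this direction among the 74. Counting also those too low to be tested, the male mean was the higher for 124 of 124, where it was for 51.0% of all 26479 genes. These genes are not separate checks: over the 100 genes of the measure above, Midday male 4 stood at 5.14% and the nearest male at 0.310%. Median log2 changes were -3.93 at Midday against -4.88 for the testes-enriched genes, -1.13 against -2.20 for the other male-high genes and 0.59 against 1.02 for the female-high genes. With the 3 treatments and the counting class in a single fit, 592 of 17975 genes were called (3.29%), among them 144 of the 146 male-high and 21 of the 23 female-high genes. That fit includes the 15 libraries in which these genes were called, so it is no separate check of them.

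**Figure D5:**
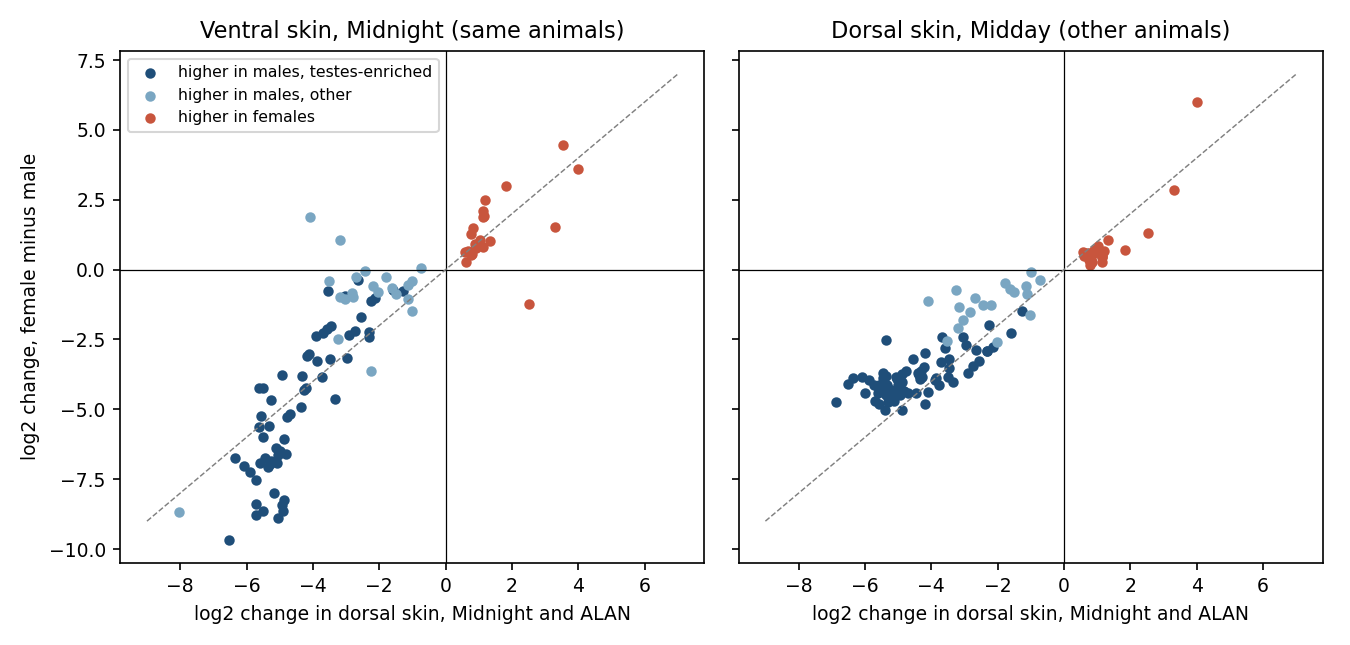
Log2 change (female minus male) of the called genes in ventral skin at Midnight (left) and in dorsal skin at Midday (right) against their log2 change in dorsal skin of Midnight and ALAN; the dashed line marks equal change. The testes-enriched genes that were tested there keep their sign in both. The other male-high genes lie nearer to 0 on the vertical axis, with medians of -0.73 and -1.13.

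Brain showed part of the same pattern. In brain of Midnight and ALAN animals 211 of 16748 genes were called by edgeR (1.26%; 344 by DESeq2, 2.05%), 99 higher in males (0.591%) and 112 in females (0.669%). Testes-enriched genes supplied 73 of the 99, where they supplied 605 of the 16748 tested. The median level of the 100 testes-enriched genes ran from 0.129% to 0.322% of the testes level in 8 males and from 0.0423% to 0.0780% in 8 females. Of the dorsal male-high genes 54 were also male-high in brain, 37.0% of the dorsal and 54.5% of the brain genes, and all 54 were testes-enriched. Of the dorsal female-high genes 8 were also female-high in brain, 34.8% of the dorsal and 7.14% of the brain genes, 3 of them on linkage group b, 3 on GL343282.1 and 1 each on GL343417.1 and GL343423.1. Brain Midnight female 4 stood apart, with ovary-enriched genes at 1.86% of its counts against 0.134% to 0.165% in the other 15 brain libraries. Without it 252 genes were called in brain, 138 higher in females and 114 in males, and the dorsal genes shared with them were 8 and 62. The sex effect differed between dorsal skin and brain at 18 of 18652 genes by edgeR (0.0965%; 233 by DESeq2, 1.25%), 15 of them among the 169 (9 testes-enriched and 6 female-high). It differed at 15 without Brain Midnight female 4 and at 0 with the title number as a block, where 1337 passed 0.05 unadjusted. In liver at Midnight 8 of 13917 genes were called by edgeR (0.0575%; 471 by DESeq2, 3.38%), with 0 to 10 when single libraries were left out, and 118 of the 124 testes-enriched genes had the higher mean in males, where 35.2% of all 26479 genes did.

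Means of genes enriched in other organs also differed between the sexes in dorsal skin, with few calls and with single libraries far above the rest. Of 342 liver-enriched genes the male mean was the higher for 298 (87.1%), where it was for 58.1% of all 26479 genes. EdgeR called 0 of the 293 tested. At an unadjusted p under 0.05, 87 were male-high and 4 female-high, where 6.65% and 5.36% of all tested genes were. DESeq2 called 22 higher in males and 1 in females, where it called 2.37% and 1.12% of all tested genes. Liver-enriched shares of counts ran from 0.426% through 0.592% to 1.86% in males and from 0.428% through 0.501% to 0.556% in females, the highest in Midnight male 4. Of 182 brain-enriched genes the female mean was the higher for 151 (83.0%), where it was for 32.3% of all 26479 genes. EdgeR called 0 of the 138 tested (16 female-high and 0 male-high before adjustment), and DESeq2 called 1 higher in females. Their shares ran from 0.0454% through 0.0718% to 0.0938% in males and from 0.0198% through 0.0569% to 0.390% in females. The highest was Midnight female 4, with the nearest Midnight female at 0.0874%, and the median share was lower in females than in males. The female mean of the brain-enriched genes was also the higher for 131 of 182 in ventral skin at Midnight (72.0%). In dorsal skin at Midday it was for 146 of 182 (80.2%). Over all 26479 genes these shares were 37.5% and 37.0%. In ventral skin at Midnight the female mean of the liver-enriched genes was the higher for 282 of 342 (82.5%), where it was for 37.5% of all 26479 genes. Female 4 there held them at 2.58% of counts, and the nearest female at 0.479%. Without Midnight male 4 and Midnight female 4 together, 105 genes were called in dorsal skin, 100 higher in males and 5 in females. Of the 37 mitochondrial genes 13 were tested and 0 called by edgeR or DESeq2, with 0 at an unadjusted p under 0.05 by edgeR and a median log2 change of 0.00.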

How the data were processed

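The authors deposited raw read counts per Ensembl gene ID for 142 libraries. The submitters' processing notes name STAR 2.7.11a, Trimmomatic, FastQC, Subread and featureCounts. The sources used here do not give the genome build, annotation release or strand setting, so overlapping, antisense and closely related genes may share reads. Counts of 7 male and 8 female dorsal libraries were tested with edgeR 4.0.16 in R 4.3.3 (filterByExpr on the 4 groups, TMM, treatment as covariate, a robust quasi-likelihood fit, Benjamini-Hochberg adjustment). Differences between tissues or treatments were tested as interaction terms. CPM are counts divided by library totals and rescaled. DESeq2 1.42.0, RLE, no filter, other sample sets and single omissions were alternatives. The fits were tested on simulated data. Named genes were, per direction, the called gene of smallest p and that of largest change among genes whose sexes did not overlap within either treatment, both with a mean of at least 1 CPM. The comparison, lists and tests were chosen with earlier results of these data known. Pigment, hormone, keratin, matrix, immune, lipid and cell type lists were not run, since IDs could not be paired with names. Figures were drawn with matplotlib 3.10.9.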

Additional observations from a re-analysis of the deposited data

Results flagged for a closer look

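In 15 of 70 checks of groups of 4 libraries a single library lay far from the other 3. The limit used is passed in about 1 in 20 groups of normally distributed values. These values are raw levels, some near 0, and the checks share libraries, so that rate cannot be set against the 15. In dorsal skin at Midnight, male 4 held ENSACAG00000029618 at 183 CPM (nearest 1.05) and liver-enriched genes at 1.86% of counts (Wilson 95% interval 1.85% to 1.86%, nearest 0.653%). Female 2 held ENSACAG00000038058 at 0.0419 CPM beside 3 libraries at 0, which is 1 count. Female 1 held the testes-enriched genes at 0.0687% of their testes level (nearest 0.0350%), and female 4 held brain-enriched genes at 0.390% of counts (0.387% to 0.392%, nearest 0.0874%).

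In dorsal skin at Midday, male 4 held ENSACAG00000038058 at 74.7 CPM (nearest 2.63) and the testes-enriched genes at 5.14% of their testes level (nearest 0.310%). Male 2 held ENSACAG00000029618 at 163 CPM (nearest 5.53), and its summed level of the 23 female-high genes was 1075 CPM (nearest 1746).

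In ventral skin at Midnight, male 4 held ENSACAG00000029618 at 261 CPM (nearest 0.827). Male 1 held eye-enriched genes at 0.167% of counts (0.165% to 0.168%, nearest 0.0458%) and the 23 female-high genes at 5343 CPM (nearest 1494). Female 1 held those 23 genes at 29489 CPM (nearest 4147). Female 4 held liver-enriched genes at 2.58% of counts (2.58% to 2.59%, nearest 0.479%), and female 3 held ovary-enriched genes at 0.337% (0.335% to 0.339%, nearest 0.201%).

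The sex effect on ENSACAG00000015767 differed between dorsal skin and brain by the test of the difference itself (edgeR adjusted p = 0.0140), with a log2 change of 4.00 in dorsal skin and 0.04 in brain. The libraries of both tissues came from the same animals, and with the title number as a block the adjusted p was 0.374 and 0 genes were called. Without Brain Midnight female 4, which stood apart from the other brain libraries, it was 0.0217.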

How the results depend on the processing

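The 169 calls became 609 with DESeq2, 700 with all 3 treatments, 592 with the counting class added, 105 without Midnight male 4 and female 4, 38 without ALAN males 1 and 4, and 0 without testes-enriched genes, in the Midnight libraries alone or in the ALAN libraries alone. The alternatives without Brain Midnight female 4 (15 calls between dorsal skin and brain, where 18 were called), without Midnight male 4 and female 4, without ALAN males 1 and 4 and without testes-enriched genes were chosen after seeing the data. Size factors by RLE, no filter, no treatment term, a fit that is not robust and a minimum log2 change of 1 gave 158 to 197. Single omissions gave 111 to 177, and 111 was without ALAN female 1. Female-high calls ran from 7 to 38 and moved by over 1.5 times in every omission but those of Midnight female 4, ALAN male 1 and ALAN female 4, and male-high calls ran from 96 to 156. Single omissions gave 0 calls in ventral skin, at Midday and between the skins, 184 to 255 in brain and 0 to 10 in liver, where 8 were called.

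DESeq2 called 261 in ventral skin, 2 between the skins, 35 by treatment, 78 at Midday, 344 in brain, 233 between dorsal skin and brain and 471 in liver, and no filter gave 32 in liver. With the replicate number as a block across the sexes, calls fell to 1 in dorsal skin and 0 in liver. Males and females are different animals, so the number does not pair them: deviations correlated at -0.29 to 0.23 over 7 same-numbered pairs. Between dorsal skin and brain the block instead joined libraries of the same treatment, sex and number, and calls fell to 0. Between dorsal and ventral skin, same-numbered libraries correlated at -0.08 to 0.83 over 8 pairs, with 6 of 8 closest to their own number, and between dorsal skin and brain at -0.19 to 0.22, with 13 of 15 closest. The labels do not say that the number marks an animal.

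No named gene changed direction. ENSACAG00000038058 passed the test in 25 of 27 alternatives, ENSACAG00000015767 in 24 of 28, ENSACAG00000042617 in 13 of 28 and ENSACAG00000029618 in 11 of 26. Groups of 4 limit the checks in ventral skin and at Midday, and counts under 3 per library limit the genes near 0 in females.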
